A study of Capra hircus with 20 samples.

Results

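The genes described here encode gonadotropin-releasing hormone (GnRH), kisspeptin, the peptides of KNDy neurons, an RFamide peptide that acts on the same axis, and their receptors. They were chosen by name, as GNRH1, GNRHR, KISS1, KISS1R, TAC3, TACR3, PDYN and NPVF, and all 8 were found by their NCBI gene identifiers among the 21071 genes with deposited values. GnRH neurons release their hormone in pulses into the portal blood of the pituitary, where it drives the secretion of the gonadotropins. Kisspeptin neurons of the arcuate nucleus, which also make neurokinin B and dynorphin and are therefore called KNDy neurons, are known as the generator of these pulses: neurokinin B starts the activity of the KNDy network, dynorphin ends it, and kisspeptin carries the signal to the GnRH neurons. The cell bodies of these neurons are few and lie in small nuclei, so their transcripts make up a small share of the RNA of a whole hypothalamus.

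The hypothalamus of 20 female Jining grey goats was sequenced, with 1 rRNA-depleted, strand-specific library per goat and 5 goats at each of 4 ages after birth, namely 1 day (D1), 60 days (M2), 120 days (M4) and 180 days (M6). The goats were healthy, kept under the same feeding and management, and slaughtered on the same day. The study compared the stages to follow the hypothalamus from birth to sexual maturity. Values are FPKM, the fragments of a gene scaled by the length of its exons and by the mapped fragments of the library, so levels can be compared between genes per length. The sum of FPKM over all genes lay between 260199 and 377479, and since FPKM hold no count of reads per gene, no counting interval is given and the spread between libraries carries the precision.

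The libraries differed in the levels of markers of hypothalamic nuclei and of other brain regions, beside which the values below should be read. Summed FPKM of 8 arcuate neuron genes ranged from 1.43 in M6 replicate 3 to 118 in M6 replicate 4. CARTPT alone gave 108 FPKM of the sum in M6 replicate 4, and the next highest sum was 45.9 FPKM in D1 replicate 3. Within that list POMC, which marks an arcuate neuron type, was above 0 in every library but never over 5.63 FPKM, AGRP was listed at 0 in 13 libraries and GHRH in 19. AVP and OXT, the hormones of the magnocellular neurons, summed to between 94.7 and 614 FPKM in 5 libraries (D1 replicate 1, M4 replicate 4 and M6 replicates 2, 4 and 5) and to at most 5.95 FPKM in the other 15. Summed FPKM of 4 striatal genes (PPP1R1B, DRD1, ADORA2A and RGS9) was 445 in D1 replicate 4, 184 in M6 replicate 2 and 124 in M2 replicate 4, against at most 18.97 in the remaining libraries. Cortical genes were highest in M4 replicate 1, with a sum of 126 FPKM, and thalamic genes in M4 replicate 2, with a sum of 92.3 FPKM. In M2 replicate 3 and M6 replicate 3 a single gene, KLHDC1, took 23.9% and 9.83% of the summed FPKM. The part of these differences in the results below was tested only where a value without the libraries is given. In bulk tissue, fewer cells of a type and less RNA per cell cannot be told apart.

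All 8 genes had low levels apart from PDYN. The mean over 20 libraries was 27.4 FPKM for PDYN, at the 89.1st percentile of the 19281 genes with any value above 0. The other means were 2.83 FPKM for TAC3, 1.38 for TACR3, 1.34 for GNRH1, 0.489 for GNRHR, 0.219 for NPVF, 0.183 for KISS1R and 0.0893 for KISS1. Medians put the genes in another order. GNRH1, KISS1 and NPVF had a median of 0, since they were listed at 0 in 12, 15 and 17 of the 20 libraries. TACR3 had a higher median than TAC3, 0.883 against 0.514 FPKM. PDYN and TACR3 were above 0 in all libraries. M6 replicates 4 and 5 had values above 0 for all 8 genes, and M6 replicates 1 and 3 for only 3.

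**Figure D1:**
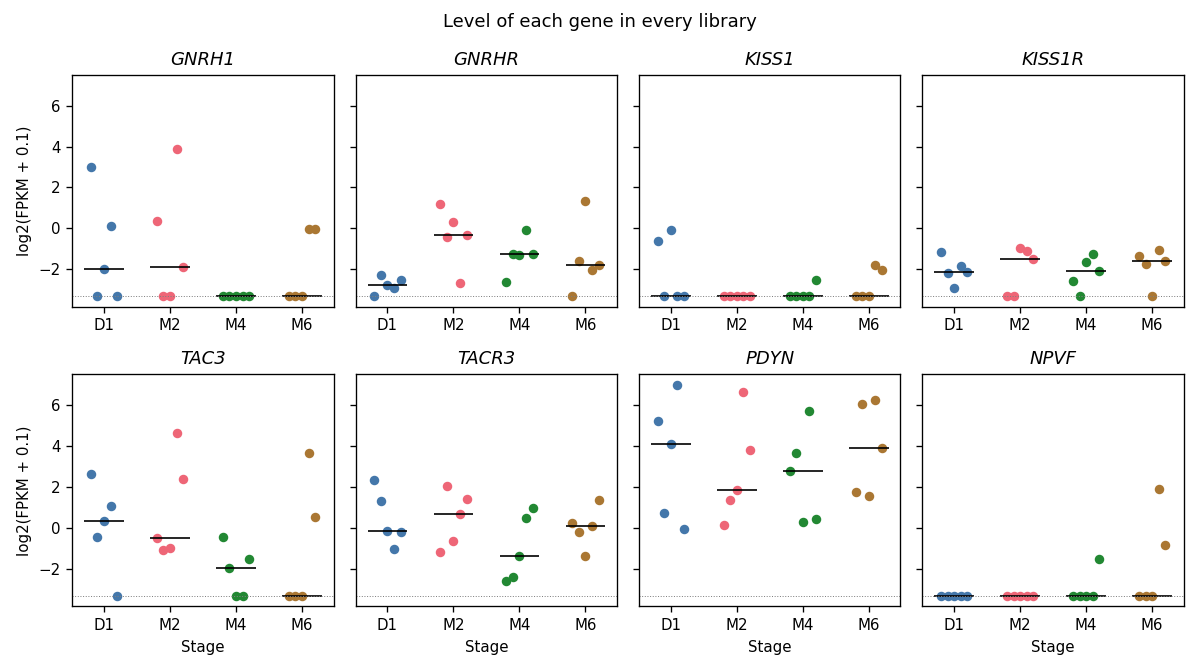
Level of each gene in every library, as log2(FPKM + 0.1) on the vertical axis, for the 4 stages on the horizontal axis. Each point is 1 library in replicate order from left to right, the black line is the median of the 5 libraries, and the dotted line is where a value listed at 0 falls. GNRH1 sits on the dotted line in all 5 M4 libraries, KISS1 and NPVF lie on it in most libraries, and PDYN spans from 0.877 to 128 FPKM.

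No stage comparison called any of these genes. A gene was called when limma, fitted to 16771 genes, gave it an adjusted p under 0.05 together with a log2 fold change of 1 or more in size. Of the 8 genes, 6 were part of this fit. KISS1 and NPVF did not reach 0.1 FPKM in at least 5 libraries and were left out of the fit. The rule called 0% of all genes tested between consecutive stages (M2 vs. D1, M4 vs. M2, M6 vs. M4) and 0% for M6 vs. M2. With D1 as the reference it called 0.0537% of genes for M4, 0.00596% for M6 and 0.0596% for the 3 later stages together. The F test over the 4 stages called 0.00596%. Against these shares, a count of 0 among 6 genes is no result about these genes in particular. At an unadjusted p under 0.05, GNRHR passed in M2 vs. D1, in the later stages together vs. D1 and in the F test, and TAC3 passed in M4 vs. M2. The shares of all genes that passed this looser rule were 15.6%, 11.7% and 10.4% in the first 3 and 8.68% in M4 vs. M2. In the other comparisons none of the 6 genes passed it, whereas 6.87% of all genes did for M6 vs. M4, 8.71% for M4 vs. D1, 7.41% for M6 vs. D1 and 6.14% for M6 vs. M2.

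**Figure D2:**
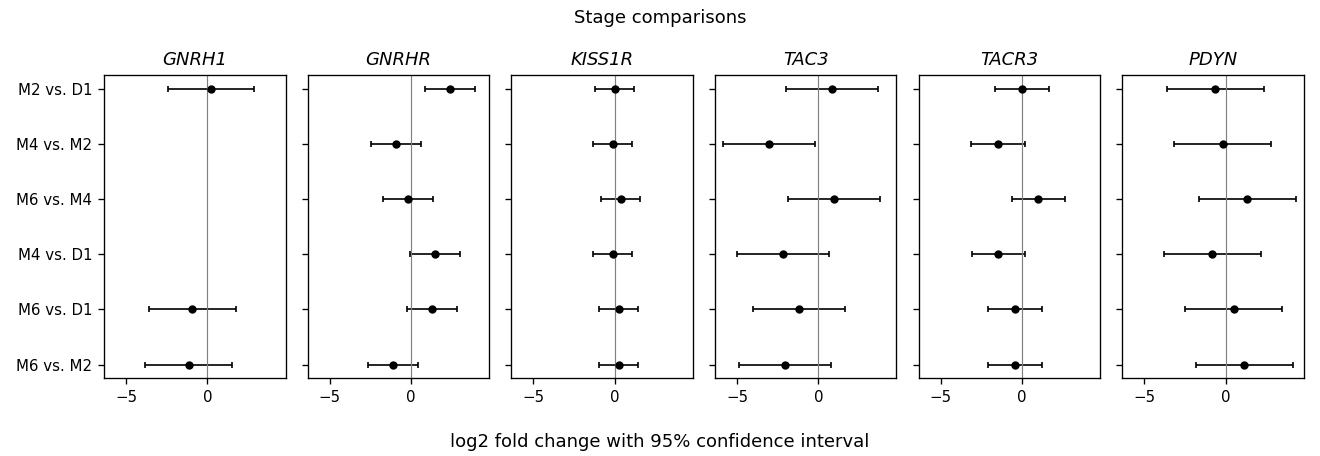
Log2 fold change (horizontal axis, on the log2(FPKM + 0.1) scale) of 6 genes in the comparisons between stages (vertical axis), from limma; points are estimates and bars are 95% confidence intervals. Comparisons of GNRH1 with M4 are left out because every M4 library was listed at 0. GNRHR in M2 vs. D1 and TAC3 in M4 vs. M2 are the intervals that exclude 0 before adjustment, and the widest intervals are those of PDYN.

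GNRH1 (chromosome 8, 72491109 to 72494582 in ARS1.2) encodes the GnRH precursor. The D1 libraries had 7.96, 0, 0.151, 0.992 and 0 FPKM, and the M2 libraries had 1.19, 0, 0, 14.6 and 0.165 FPKM. All 5 M4 libraries were listed at 0, and the M6 libraries had 0, 0, 0, 0.863 and 0.860 FPKM. GNRH1 was thus a gene of a few libraries: M2 replicate 4 held 54.6% of its summed FPKM, and only 3 libraries had 1 FPKM or more. The ranges of D1, M2 and M6 overlapped from 0 upwards, and M4 lay at the low end of each. In M2 vs. D1 the log2 fold change was 0.24 (SE 1.28), with a 95% confidence interval from -2.42 to 2.90 and an adjusted p of 0.950 from limma. M6 vs. D1 gave -0.92 (SE 1.28) and an adjusted p of 0.881. For M4 no fold is given, since its libraries were listed at 0, and the comparison with M2 had an unadjusted p of 0.0684 and an adjusted p of 0.587 from limma.

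Markers of arcuate neurons were examined in the same comparisons. Among 7 arcuate marker genes tested, 4 were lower in M4 vs. M2 and 4 in M4 vs. D1 at an unadjusted p under 0.05, and 0 at an adjusted p under 0.05. Of all genes tested, 8.68% and 8.71% passed the unadjusted rule in these comparisons, in either direction. The median log2 fold change of the list was -1.03 in M4 vs. M2, beside -0.02 over all genes tested, and -1.55 in M4 vs. D1, beside -0.07. Not every hypothalamic peptide gene had its lowest mean at M4, but single libraries carried the M4 means of the 2 genes given here. CARTPT had a mean of 5.69 FPKM at M4, 2.92 at D1 and 5.42 at M2. AVP had a mean of 79.0 FPKM at M4, 36.1 at D1 and 1.73 at M2. At M4, CARTPT had 20.1 FPKM in replicate 2 and at most 4.35 in the other libraries. AVP had 392 FPKM in M4 replicate 4 and at most 1.24 in the other M4 libraries. NKX2-1, a transcription factor of the ventral hypothalamus, had 0.0296, 0, 0, 0.243 and 0.222 FPKM in the M4 libraries, while its highest values were 3.17 FPKM in D1 replicate 1, 2.26 in M2 replicate 5 and 2.23 in M2 replicate 4. Its part in the absence of GNRH1 values at M4 was not tested.

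GNRHR (chromosome 6, 84144226 to 84161854) encodes the GnRH receptor, best known from the gonadotrophs of the pituitary. The D1 libraries had 0, 0.103, 0.0458, 0.0305 and 0.0706 FPKM. The M2 libraries had 2.20, 0.642, 1.13, 0.0540 and 0.702 FPKM. The M4 libraries had 0.0611, 0.321, 0.297, 0.841 and 0.321 FPKM, and the M6 libraries had 0, 0.232, 2.40, 0.146 and 0.185 FPKM. The M2 replicates 1, 2, 3 and 5 lay above every D1 library, and M2 replicate 4 lay within the D1 range. By medians the order was M2 (0.702 FPKM), M4 (0.321), M6 (0.185) and D1 (0.0458), and the ranges of neighbours in this order overlapped.

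Of the 6 tested genes, GNRHR had the largest share of its variance between stages, 37.8%, beside a median of 18.2% over all genes tested. Between M2 and D1 its log2 fold change was 2.39 (SE 0.74), with a 95% confidence interval from 0.86 to 3.92, an unadjusted p of 0.00394 and an adjusted p of 0.167 from limma. For the 3 later stages together vs. D1 it was 1.72 (SE 0.60), with an adjusted p of 0.279. Both differences missed the threshold after adjustment. With the mapping rate of each library as a covariate they were 0.64 (SE 0.73, adjusted p = 0.892) and 0.33 (SE 0.59, adjusted p = 0.999), so the size of the difference changed with that rate in the fit. The comparison of M4 vs. D1 had a log2 fold change of 1.47 (SE 0.74) and an adjusted p of 0.589, and M6 vs. D1 had 1.29 (SE 0.74) and an adjusted p of 0.728.

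The libraries with the highest GNRHR had the lowest summed level of 3 general neuron markers. Summed FPKM of SNAP25, SYT1 and RBFOX3 was 48.4 in M6 replicate 3, 96.1 in M2 replicate 1 and 308 in M2 replicate 3, the 3 lowest sums of the 20 libraries, and GNRHR was highest in the same 3 libraries. SNAP25 made up most of these sums, with 39.2, 68.1 and 239 FPKM. RBFOX3 had 0.880, 0.868 and 0.940 FPKM there, near its median of 1.02, and was lowest in M4 replicate 5 (0.0587 FPKM). SYT1 was 67.9 FPKM in M2 replicate 3, above the 37.8 FPKM of M6 replicate 1. M2 replicate 3 and M6 replicate 3 are also the libraries in which KLHDC1 was the most abundant gene. Without both of them the log2 fold change of M2 vs. D1 was 2.22 (SE 0.64, adjusted p = 0.282). Pituitary genes were near 0 throughout: the summed FPKM of 8 genes was at most 5.75, in M2 replicate 3, where CGA had 2.12 FPKM, FSHB 0.914 and LHB 0.734. In M2 replicate 1 CGA had 0.738 FPKM while FSHB and LHB were listed at 0, and in M6 replicate 3 all 3 were listed at 0. POU1F1, another gene of the pituitary list, had its highest value in M6 replicate 3, with 1.58 FPKM of a pituitary sum of 1.67 FPKM. The part of these markers in the level of GNRHR was not tested.

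KISS1 (chromosome 16, 1340188 to 1343186) encodes kisspeptin and was the lowest of the 8 genes. It was above 0 in 5 libraries, with 0.544 and 0.839 FPKM in D1 replicates 1 and 3, 0.0735 FPKM in M4 replicate 5, and 0.191 and 0.139 FPKM in M6 replicates 4 and 5. All M2 libraries were listed at 0. In every stage at least 3 of 5 libraries were at 0, so the stages overlapped there. Two-sided exact permutation tests between pairs of stages gave p values from 0.444 to 1 (0.698 to 1 adjusted over the 11 tests of KISS1 and NPVF). With so many libraries at 0, the smallest p that the KISS1 values allowed was 0.0476 in M6 vs. D1 and between 0.167 and 1 in the other pairs, so these tests say little about a difference. D1 replicate 3, with the highest KISS1, was also the library with the highest AGRP (21.7 FPKM, against at most 1.36 FPKM elsewhere), another peptide of arcuate neurons.

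KISS1R (chromosome 7, 67025616 to 67029538) encodes the kisspeptin receptor, through which kisspeptin excites GnRH neurons. Its FPKM values were 0.346, 0.121, 0.0310, 0.176 and 0.130 at D1 and 0, 0, 0.405, 0.364 and 0.250 at M2. They were 0.0664, 0, 0.220, 0.319 and 0.133 at M4 and 0.292, 0.198, 0, 0.385 and 0.232 at M6. The receptor was evenly low: it was above 0 in 16 libraries, with no value over 0.405 FPKM, and all stages overlapped. Stage accounted for 2.70% of its variance, the lowest share of the 6 genes tested. The largest of its log2 fold changes was 0.37 (SE 0.58) in M6 vs. M4, with a 95% confidence interval from -0.83 to 1.57 and an adjusted p of 0.923 from limma. On the log2(FPKM + 0.1) scale no interval of KISS1R reached a 4-fold difference, and each held a 2-fold difference in at least 1 direction. The pseudocount shrinks folds at levels this low, so these intervals do not exclude a 4-fold difference in FPKM itself.

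TAC3 (chromosome 5, 55735712 to 55742399) encodes neurokinin B, the peptide with which KNDy neurons excite each other. The D1 libraries had 6.04, 0.634, 1.15, 1.98 and 0 FPKM, and the M2 libraries had 0.619, 0.367, 0.410, 25.3 and 5.15 FPKM. The M4 libraries had 0.631, 0.155, 0, 0 and 0.249 FPKM, and the M6 libraries had 0, 0, 0, 12.6 and 1.35 FPKM. High values were found in single libraries of D1, M2 and M6, and all M4 values were at or under 0.631 FPKM. Medians fell in the order D1 (1.15 FPKM), M2 (0.619), M4 (0.155) and M6 (0), and neighbouring stages overlapped. The largest difference was in M4 vs. M2, with a log2 fold change of -3.02 (SE 1.36), a 95% confidence interval from -5.86 to -0.18, an unadjusted p of 0.0380 and an adjusted p of 0.562 from limma. It was -2.08 (SE 1.34) without M2 replicate 4, and -1.55 (SE 0.77) with a pseudocount of 1. The values of the arcuate list in this comparison are given above with GNRH1, and their part was not tested.

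TACR3 (chromosome 6, 21663442 to 21735389) encodes the receptor of neurokinin B. Its FPKM values were 5.08, 2.43, 0.791, 0.385 and 0.781 at D1 and 0.342, 4.00, 0.549, 1.5 and 2.60 at M2. They were 0.0623, 0.0896, 0.283, 1.3 and 1.90 at M4 and 1.08, 0.783, 0.287, 0.975 and 2.45 at M6. The receptor was above 0 in every library and did not follow the peptide: D1 replicate 1 was high for both, whereas M2 replicate 2 had the second highest TACR3 with 0.367 FPKM of TAC3. Stage ranges overlapped, and the lowest 2 values were those of M4 replicates 1 and 2, the libraries with the highest cortical and thalamic marker sums. In M4 vs. M2 the log2 fold change was -1.46 (SE 0.79), with an adjusted p of 0.603, and in M4 vs. D1 it was -1.45 (SE 0.79), with an adjusted p of 0.639. Without M4 replicates 1 and 2 the first of these was -0.44.

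PDYN (chromosome 13, 52472264 to 52486248) encodes prodynorphin, the precursor of dynorphin, which is made by KNDy neurons and also by magnocellular vasopressin neurons and striatal projection neurons. The D1 libraries had 37.4, 1.57, 17.4, 128 and 0.877 FPKM, and the M2 libraries had 1.02, 2.52, 3.51, 100.4 and 13.8 FPKM. The M4 libraries had 6.83, 12.8, 1.13, 52.7 and 1.27 FPKM, and the M6 libraries had 3.29, 67.7, 2.81, 77.8 and 15.04 FPKM. Every stage held both values under 4 FPKM and values over 50 FPKM, and the 4 ranges overlapped over most of their length. Stage accounted for 5.13% of the variance of PDYN. The largest stage difference was M6 vs. M4, with a log2 fold change of 1.33 (SE 1.43), a 95% confidence interval from -1.65 to 4.30 and an adjusted p of 0.874 from limma.

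The libraries with high PDYN were those with striatal or magnocellular markers. PDYN exceeded 30 FPKM in 6 libraries. Of these, D1 replicate 4, M2 replicate 4 and M6 replicate 2 were the 3 with the highest striatal sums, and D1 replicate 1, M4 replicate 4, M6 replicate 4 and again M6 replicate 2 had high sums of AVP and OXT. M6 replicate 5 had an AVP and OXT sum of 343 FPKM with 15.04 FPKM of PDYN. TAC1, the substance P precursor that striatal projection neurons also make, was 461 FPKM in D1 replicate 4, 281 in M6 replicate 2 and 118 in M2 replicate 4, and at most 24.7 FPKM elsewhere. Of the 6 libraries, D1 replicate 1, M2 replicate 4 and M6 replicate 4 were also the 3 highest in TAC3, with 6.04, 25.3 and 12.6 FPKM. How much of PDYN came from striatal, magnocellular or KNDy neurons was not tested.

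**Figure D3:**
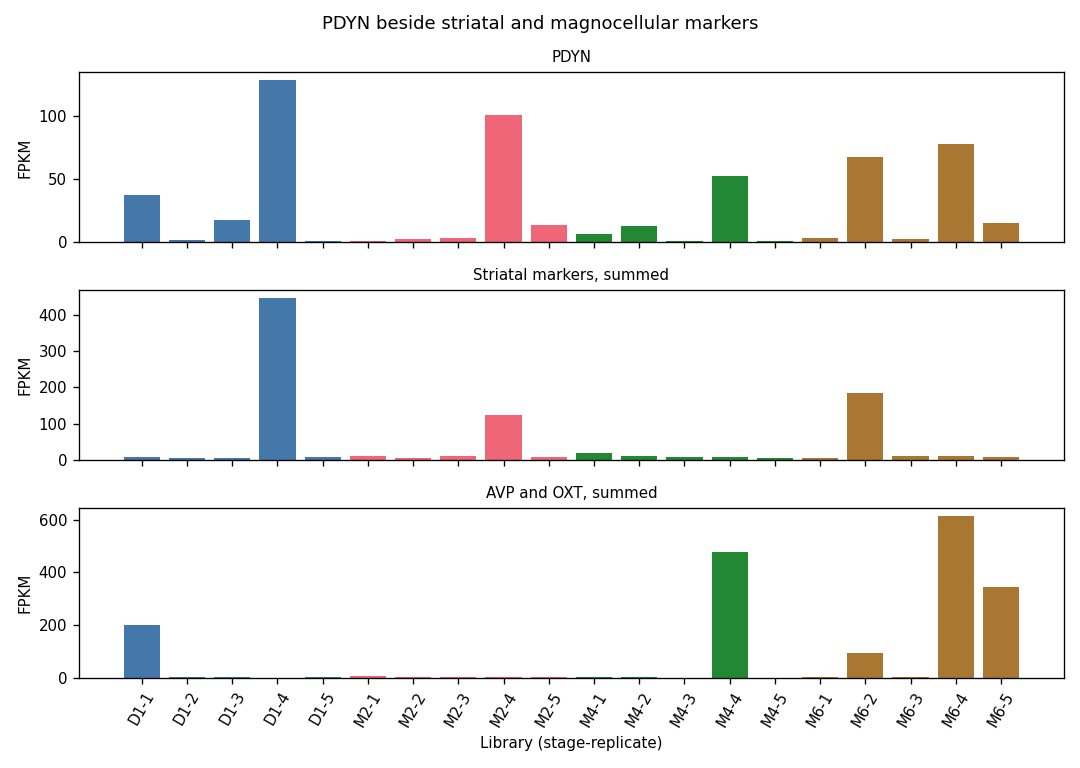
PDYN (top), the summed level of 4 striatal marker genes (middle) and the summed level of AVP and OXT (bottom) in FPKM, in the 20 libraries along the horizontal axis, coloured by stage. Each of the 6 libraries with over 30 FPKM of PDYN has a tall bar for striatal markers (124 to 445 FPKM) or for AVP and OXT (198 to 614 FPKM).

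NPVF (chromosome 4, 49568688 to 49572076) encodes the precursor of the RFamide-related peptides, the mammalian counterpart of gonadotropin-inhibitory hormone. It was listed at 0 in all D1 and M2 libraries. It had 0.246 FPKM in M4 replicate 5, and 3.67 and 0.466 FPKM in M6 replicates 4 and 5. M6 replicate 4 held 83.7% of the summed FPKM, and the other 3 M6 libraries were at 0. The exact permutation tests of NPVF gave a two-sided p of 0.444 in each comparison of M6 with another stage, and none could have gone below 0.167 with these values. The 3 libraries with NPVF above 0 were all among the 5 with KISS1 above 0, which is 3 of 3 for NPVF and 3 of 5 for KISS1. This was not particular to KISS1, since GNRHR, KISS1R, TAC3, TACR3 and PDYN were also above 0 in all 3 of these libraries. M6 replicate 4 was also the library with the highest CARTPT (108 FPKM), TRH (55.0 FPKM) and OXT (413 FPKM), hormone and peptide genes of other hypothalamic neurons.

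The 3 ligand genes in the fit varied widely between goats of one age. The SD within stages on the log2(FPKM + 0.1) scale was 2.54 for PDYN, 2.39 for TAC3 and 2.22 for GNRH1, at or above the 99.5th percentile of the 16771 genes tested, whose median was 0.568. Among the 500 genes nearest in mean level, they stood at the 99.8th, 99th and 99.6th percentile. Some peptide genes of other hypothalamic neurons varied as much or more, with an SD of 3.49 for OXT, 3.49 for PMCH, 3.21 for AVP, 3.00 for HCRT and 2.62 for TRH. Others varied less. In M2 vs. D1 the SE from limma was 0.55 for POMC, 1.07 for AGRP, 1.11 for CRH and 1.18 for NPY. It was 1.28 for GNRH1, 1.36 for TAC3 and 1.43 for PDYN. The receptors varied less, with an SD of 1.36 for TACR3, 1.22 for GNRHR and 0.899 for KISS1R, at the 86.4th, 58.8th and 25.2nd percentile of the genes nearest in mean level. For GNRH1 and TAC3 part of this spread is the step between libraries at 0 and the rest, whose size the pseudocount sets.

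**Figure D4:**
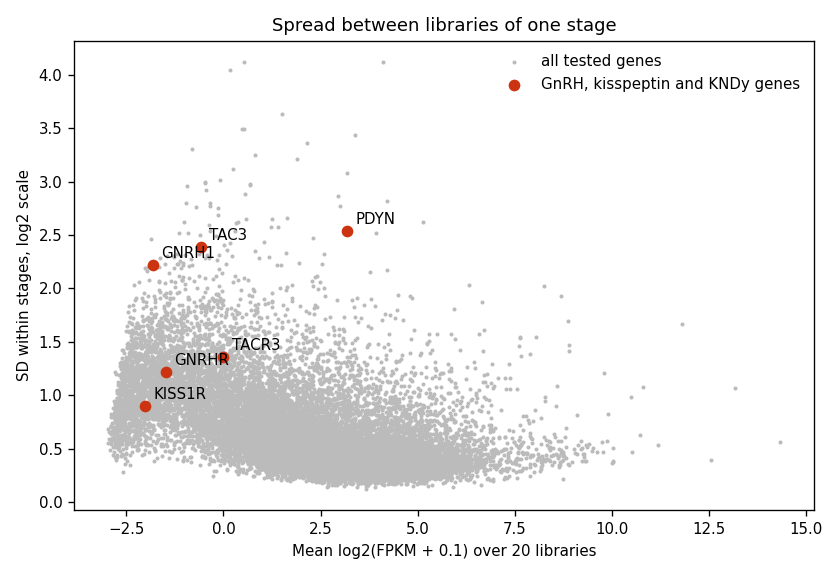
SD within stages (vertical axis, log2 scale) against the mean of log2(FPKM + 0.1) over 20 libraries (horizontal axis) for the 16771 genes tested, in grey, with the 6 tested genes in red. PDYN, TAC3 and GNRH1 lie at the upper edge of the genes of their level, at an SD of 2.22 to 2.54, while KISS1R, at 0.899, lies among them.

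Across libraries, GNRH1 and TAC3 varied together. Pearson's r of log2(FPKM + 0.1) over the 20 libraries was 0.811 (permutation adjusted p = 0.00075) and Spearman's rho was 0.819 (permutation adjusted p = 0.00075), adjusted over the 15 pairs of the 6 tested genes. All 8 libraries with GNRH1 above 0 were among the 14 with TAC3 above 0. This overlap was not particular to TAC3: TACR3 and PDYN were above 0 in all 8, and GNRHR and KISS1R in 7. In the 6 libraries with TAC3 listed at 0, GNRH1 was at 0 too, so these libraries tie in the correlation. GNRH1 and TAC3 were both highest in M2 replicate 4, followed for TAC3 by M6 replicate 4 and D1 replicate 1 with 12.6 and 6.04 FPKM, and for GNRH1 by D1 replicate 1 with 7.96 FPKM. The correlation remained within stages, where r of the deviations from stage means was 0.771 (permutation adjusted p = 0.0136). It was 0.704 without D1 replicate 1 and M2 replicate 4, the 2 libraries farthest from the median of GNRH1. Without D1 replicate 1, M2 replicate 4 and M6 replicate 4, the 3 libraries highest in TAC3, it was 0.629 and no longer passed (permutation adjusted p = 0.0712), whereas rho was 0.718 and still passed (permutation adjusted p = 0.0225). Among the 16770 other genes ranked by rho, TAC3 was the 6th for GNRH1 and GNRH1 the 7th for TAC3. GnRH neurons and KNDy neurons are different cells, and the libraries also differ in hypothalamic markers: of the 3 libraries highest in TAC3, NKX2-1 was 3.17, 2.23 and 1.38 FPKM in D1 replicate 1, M2 replicate 4 and M6 replicate 4, against a median of 0.306 FPKM. NKX2-1 did not follow TAC3 throughout. It was 1.69 FPKM in M6 replicate 2, with TAC3 and GNRH1 listed at 0, and 1.53 in M2 replicate 1, with 0.619 FPKM of TAC3. M2 replicate 5 had 2.26 FPKM of NKX2-1 with 5.15 of TAC3 and 0.165 of GNRH1. The part of the region sampled in the correlation was not tested.

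PDYN followed TAC3 and GNRH1 less closely. Its r was 0.535 with TAC3 and 0.533 with GNRH1, each with a permutation adjusted p of 0.0799, and rho was 0.524 and 0.508, each with a permutation adjusted p of 0.112. Within stages r was 0.623 with TAC3 (permutation adjusted p = 0.0511) and 0.580 with GNRH1 (permutation adjusted p = 0.10). Leaving out single libraries took both relations past the threshold. Without M4 replicate 4 r with TAC3 was 0.642 (permutation adjusted p = 0.0217), and without M6 replicate 2 it was 0.659 (permutation adjusted p = 0.0217). The r with GNRH1 was 0.598 and 0.610 without the same libraries and 0.646 without M2 replicate 1 (permutation adjusted p = 0.0345, 0.0242 and 0.0116). M4 replicate 4 and M6 replicate 2 had 52.7 and 67.7 FPKM of PDYN with TAC3 listed at 0, together with an AVP and OXT sum of 478 FPKM in the first and striatal and magnocellular markers in the second. Without the 3 libraries highest in TAC3, r with TAC3 was 0.250.

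**Figure D5:**
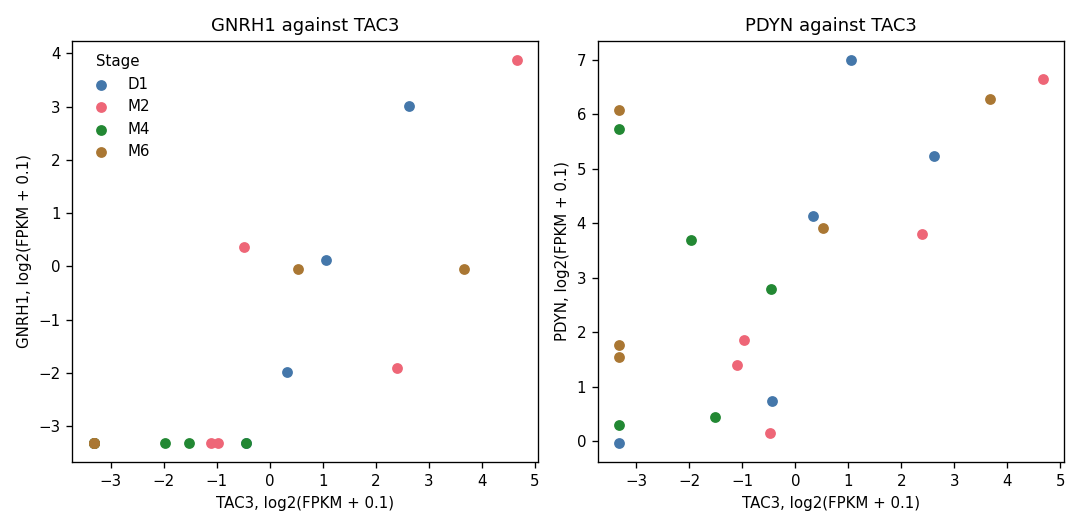
GNRH1 (left) and PDYN (right) against TAC3, each as log2(FPKM + 0.1), with 1 point per library coloured by stage; libraries with both values listed at 0 coincide at the lower left of the left plot. GNRH1 is above 0 only in libraries with TAC3 above 0 (r = 0.811), and in the right plot M4 replicate 4 and M6 replicate 2 stand at the upper left with high PDYN and TAC3 at 0.

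The other 12 pairs did not pass. Receptors and their ligands were not closely paired, with r of 0.357 for TAC3 and TACR3 (permutation adjusted p = 0.231) and -0.297 for GNRH1 and GNRHR (permutation adjusted p = 0.237). GNRHR had negative values with all 5 other genes, from -0.357 with KISS1R to -0.171 with TACR3, and none of these passed. KISS1R had r of 0.436 with PDYN (permutation adjusted p = 0.204), 0.379 with TACR3 and 0.333 with TAC3. TACR3 and PDYN had the weakest relation, with r of 0.111.

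The genes most like each of the 6 in their order over the 20 libraries were taken from 12364 named genes with a mean of at least 1 FPKM, as a description. For GNRH1 they were CRSP-1, a peptide of the calcitonin family (rho = 0.847), CYP19A1, the aromatase that makes estrogens (0.830), and DLX1, a homeobox factor of forebrain GABA neurons (0.828). CRSP-1 was also second for TAC3 (rho = 0.834), between CMTR1 (0.834) and DTX3 (0.833). PDYN was closest to TGFA, a ligand of the EGF receptor (0.860), TMEM158 (0.856) and EFNB3, an ephrin (0.845). GNRHR was closest to KCNMB3, a subunit of potassium channels (0.894), ADAMTS19 (0.891) and MAD1L1, a spindle checkpoint gene (0.889). TACR3 was closest to NCAPG, a condensin subunit (0.844), PLCXD3 (0.829) and SLC10A4 (0.806). KISS1R had the fewest close genes, led by NFYA, a transcription factor (0.786), TBC1D22A (0.718) and FNDC10 (0.711). A rho of at least 0.7 was reached by 9 genes for KISS1R, 30 for TACR3, 75 for GNRH1, 103 for PDYN, 146 for TAC3 and 151 for GNRHR, of 16770.

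Other genes of the same network were described by list. Of 9 partner peptides and receptors, which include the dynorphin receptor OPRK1 and the RFamide receptors NPFFR1 and NPFFR2, 8 were tested and 0 passed an adjusted p under 0.05 in any comparison. None had an unadjusted p under 0.05 either, and their median log2 fold changes lay between -0.58 in M6 vs. M2 and 0.30 in M2 vs. D1, beside 0.02 and -0.07 over all genes. OPRK1 was above 0 in every library, from 0.362 FPKM to 23.3 FPKM in D1 replicate 4. NPFFR1, which binds the NPVF peptides, was listed at 0 in 15 libraries. The smallest unadjusted p of the list belonged to TACR2, a tachykinin receptor, with a log2 fold change of 0.94 (SE 0.53, adjusted p = 0.728) in M6 vs. D1, and to NPFFR2, with -1.24 (SE 0.73, adjusted p = 0.784) in M6 vs. M4.

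All 8 hormone receptors of the network were tested and 0 passed after adjustment in any comparison. ESR1, the estrogen receptor through which the ovary acts on kisspeptin neurons, had the smallest p, with a log2 fold change of 2.35 (SE 0.80) in M6 vs. D1, an unadjusted p of 0.00828 and an adjusted p of 0.535 from limma. It was the one gene of the list with an unadjusted p under 0.05 in M6 vs. D1, which 7.41% of all genes passed. The median of the list there was 0.40, beside -0.05 over all genes. ESR1, ESR2, PRLR and LEPR were all highest in M6 replicate 4, with 5.97, 3.25, 10.5 and 7.05 FPKM. GHSR, the ghrelin receptor, had a log2 fold change of 0.95 (SE 0.62, adjusted p = 0.750) in M6 vs. M2.

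Of 16 genes of GnRH neuron development, 15 were tested and 0 passed after adjustment. ANOS1, whose protein guides the migration of GnRH neurons, had a log2 fold change of -0.71 (SE 0.22) in M6 vs. D1, with an unadjusted p of 0.00454 and an adjusted p of 0.459 from limma. HESX1, a homeobox gene of forebrain and pituitary development, had 0.71 (SE 0.29, adjusted p = 0.746) in M6 vs. M2. In that comparison 1 gene was higher and 2 were lower at an unadjusted p under 0.05, which 6.14% of all genes passed. The median of the list was -0.41, beside 0.02 over all genes. SEMA3A, NRP1, NRP2 and ANOS1, genes of semaphorin signalling and neuron migration, were highest in D1 replicate 1, with 6.74, 12.8, 15.9 and 13.9 FPKM.

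The 7 enzymes and chaperones that process peptide precursors were all tested, and 0 passed after adjustment. CPE, which trims the cut peptides, had a mean of 305 FPKM and a log2 fold change of -0.55 (SE 0.24, adjusted p = 0.281) in M2 vs. D1. FURIN, a convertase of the secretory pathway, had 0.58 (SE 0.31, adjusted p = 0.364) in the same comparison. The median of the list was -0.35 in M2 vs. D1, beside -0.07 over all genes. PCSK1 and PCSK2, the convertases that cut prohormones in neurons, were highest in M4 replicate 1 (32.7 FPKM) and M4 replicate 2 (20.9 FPKM). Neither was the top library of GNRH1, TAC3 or PDYN. PCSK1 was next highest in M6 replicate 4 (19.9 FPKM), the second library for TAC3 and the third for PDYN. PCSK2 was next highest in M4 replicate 1 (19.1 FPKM).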

How the data were processed

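Total RNA of each hypothalamus was depleted of rRNA and sequenced as a strand-specific library. The authors trimmed reads with fastp, aligned them to the goat genome ARS1.2 with HISAT2 2.0.5, assembled transcripts with StringTie 1.3.3b and deposited 1 FPKM value per gene and library. No counts per gene were used, so no counting error is given. Of 21071 gene identifiers, 20610 matched a RefSeq table of ARS1.2, which gave symbols and positions. A gene was tested if 5 or more of the 20 libraries reached 0.1 FPKM, and limma 3.58.1 (R 4.3.3) was run on log2(FPKM + 0.1), grouped by stage, with trended variances. Adjustment was by Benjamini-Hochberg over the 16771 genes. The pseudocount shrinks the fold changes of low genes. In simulated data of M2 vs. D1 with 16771 genes, 16.5%, 70% and 97.5% of 200 genes shifted by 1, 2 and 4 log2 units were called, and 0% without a shift. The shifted genes were drawn from all tested genes, with normal values and the SD within stages of each gene, whose median was 0.568. That SD was 0.899 to 2.54 in the 6 tested genes described here, so these shares do not give the chance of calling them. Correlations used 100000 permutations of library labels, and genes outside the fit exact permutation tests over 252 divisions (Python 3.11.15, pandas 2.3.3, numpy 2.4.6, scipy 1.17.1; figures with matplotlib 3.10.9).

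The 8 genes and the lists were chosen with earlier results of these data known. Named genes were the 8, the 2 of each pathway list with the smallest unadjusted p where none passed, the 3 with the highest Spearman's rho for each tested gene, and markers. Library-specific values of other list genes were chosen after their values were seen. The alternatives were other pseudocounts, filters, normalizations and variance settings, library weights, a fit of the 10 libraries compared, the replicate number as a block, the study's mapping rate of each library as a covariate, and leaving libraries out. Leaving out the libraries high in striatal, in cortical and thalamic, or in TAC3 values was added after seeing the data. The pituitary genes PRL and GH, and sequences of the genes, were not analysed here, and 1 striatal marker gene is not reported here and was left out of the striatal sums.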

Additional observations from a re-analysis of the deposited data

Results flagged for a closer look

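The highest and the lowest library were examined in 28 groups of 5 libraries, with 4 further groups left out because they were at 0 throughout. In 11 of the 28 the highest library stood apart from the rest, by a gap to the next library that took more than 0.71 of the whole range of the group. Chance sets the highest or the lowest library apart in about 1 in 20 groups under a normal spread, which levels near 0 do not have. For PDYN this share was 0.713 at D1 (D1 replicate 4), 0.872 at M2 (M2 replicate 4) and 0.773 at M4 (M4 replicate 4). For TAC3 it was 0.808 at M2 (M2 replicate 4) and 0.893 at M6 (M6 replicate 4). For GNRH1 it was 0.875 at D1 (D1 replicate 1) and 0.919 at M2 (M2 replicate 4), so M2 replicate 4 stood apart for all 3 peptides. GNRHR stood apart at M6, with 0.903 for M6 replicate 3. NPVF did so at M6, with 0.873 for M6 replicate 4, and at M4, where M4 replicate 5 was the only library above 0 and the share was 1. KISS1 at M4 also had a share of 1, again from M4 replicate 5.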

How the results depend on the processing

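No alternative called any of the 6 tested genes in any comparison, over 285 counts. Few genes were called under the alternatives at all. Among the fits to all 4 stages, library weights called the most, 223 of 16771 genes for the later stages together vs. D1. As in the main fit, a count of 0 among 6 genes is therefore no result about these genes in particular. Of the recomputed fold changes of the 6 genes, 239 kept their direction and their side of the threshold and 2 changed direction. GNRHR in the later stages together vs. D1 turned to -0.10 with the replicate block and the mapping rate together, and KISS1R in M6 vs. M4 turned to -0.14 without M4 replicates 1 and 2. GNRHR in M2 vs. D1 ranged from 0.11, with the same block and mapping rate, to 3.70, with a pseudocount of 0.01, and its adjusted p from 0.0518, with library weights, to 0.993. Replicate numbers did not pair the libraries: over 30 pairs of libraries with the same number, the median correlation of deviations was -0.01. With the replicate block alone GNRHR in M2 vs. D1 remained at 2.39 (adjusted p = 0.216). Of the recomputed correlations, 74 kept their side of the threshold, 1 (GNRH1 and TAC3 without 3 libraries) lost it for r, and 6 of PDYN gained it, among them TAC3 and PDYN with a pseudocount of 1 (r = 0.607, permutation adjusted p = 0.0244). No counting error was calculated for levels under 1 FPKM.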
